A study of Mus musculus with 4 samples.

Results

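Integrin subunits and focal adhesion proteins were examined in 4 cultured mouse melanoma lines, each measured on 1 array. The members were all probes whose gene symbol begins with Itga or Itgb followed by a digit or by v, x, m, l, e or d, together with 24 listed genes that include the receptor Cd44 and the adhesion plaque proteins. They came to 43 of the 33012 probes on the array and stood for 40 genes, out of 15695 gene symbols in the table. Of these, 23 probes belonged to 21 integrin subunits and 15 to 14 listed genes. Another 5 probes (Itgb1bp1, Itgb1bp2, Itgb2l, Itgb4bp and Itgbl1) met the spelling rule without being classical integrin subunits. Tln1 and Tns1 were found under older symbols. Tln2, Actn1 and Flna were not analysed here.

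B16 is a melanoma line of C57Bl6 background that was injected into the back skin of mice. B16-RI was grown from the lymph node metastases of that injection. Cells of B16-RI were injected again, which gave B16-RII from lymph node metastases and B16-RIIL from lung metastases, lines that the methods also write as B16-R2 and B16-R2L. All 4 lines were kept in the same medium with 20% fetal bovine serum, and the RNA of each array was pooled from 2 passage numbers. The labels give 1 sample per line, although the study describes duplicate cultures. The deposited table also holds columns of second arrays, which match no labelled sample and were not used here. No difference below therefore has a replicate check, and no test between lines was run. Each passaged line is a culture of cells that had grown out of metastases, and its history in the animal cannot be told apart from its later history in culture.

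Integrins are receptors of an alpha and a beta chain that hold cells to matrix proteins such as fibronectin, laminin, vitronectin and osteopontin. Inside the cell their beta tails are gripped by talin, which recruits vinculin, paxillin, focal adhesion kinase and actin crosslinkers into focal adhesions. Melanoma cells use these contacts for migration, and Itga4 and Itgb3 are well known integrin chains of melanoma.

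Signals are given on a log2 scale after the overall offset of each array from B16 had been removed within each of the 2 sets of probes that the authors scaled separately. The offsets removed ran from -0.01 to 0.46 log2 units. Detection of a probe on an array required that its S/N, the signal over the noise of the spot, reached 3 and that its error flag did not exceed 5000. A member was called above or below when the lines differed at least 2-fold and the brighter array detected it. Where the dimmer array did not detect the probe, its signal was set no lower than the dimmest detected probe of that array, and the difference is given as a bound ("at least"). An undetected signal above that level was used as it stood. Such a bound is thus a ratio to an undetected signal, subject to its noise, and not a strict lower limit. Signals of different probes were not compared with each other.

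The cultures carried the markers of their lineage. All 6 probes for melanocyte genes were detected on every array, with a summed signal of 5659 in B16, 5281 in B16-RI, 5081 in B16-RII and 5093 in B16-RIIL. Of 15 leukocyte probes, 3 were detected in B16, B16-RI and B16-RII and 5 in B16-RIIL. Among them, 1 probe of Cd79a had an S/N between 41.6 and 80.8 over the arrays, whereas Ptprc, the antigen common to leukocytes, was not detected on any. Of 7 endothelial probes, 0 were detected in B16 and B16-RI, 1 in B16-RII and 2 in B16-RIIL. Of 6 fibroblast probes, between 1 and 3 were detected on each array, and of 5 probes for lung epithelium 3 were detected in B16, 3 in B16-RIIL and 0 in the other lines. RNA came from whole cultures, in which fewer cells of a type and less RNA per cell cannot be told apart.

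Among the 43 member probes, 18 probes of 17 genes were detected on every array, 8 on some arrays and 17 on none. Both classes held integrins, since 5 of the 23 subunit probes were detected on every array and 11 on none. The subunits always present were Itgb1, Itga4, Itga6 with both of its probes, and Itga9. In B16-RI, 25 member probes could be compared with B16. Of these, 3 were above B16 (12%), against 7.71% of all probes compared, and 3 were below (12%), against 11.7% of all probes. In B16-RII, 2 of 25 were above (8%), against 6.71% of all probes, and 4 were below (16%), against 11.3%. In B16-RIIL, 1 of 23 was above (4.35%), against 8.4% of all probes, and 2 were below (8.70%), against 9.99%. The member counts are small and, with 1 array per line, the shares carry no test.

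Differences of at least 2-fold were more common among dim probes throughout the array. When the brighter array had an S/N of at least 10, the share of all probes above B16 was 1.87% in B16-RI, 2.75% in B16-RII and 3.32% in B16-RIIL, and the share below was 3.15%, 2.71% and 2.68%. Under an S/N of 10 the shares above were 17.3%, 13.7% and 17.1%, and those below 25.7%, 26.4% and 22.6%. Among the members at an S/N of at least 10, 0 of 17, 0 of 18 and 0 of 18 were above B16, and 2 of 17, 2 of 18 and 1 of 18 were below. The genes behind these calls were Itga4 in all passaged lines and Vcl in B16-RI and B16-RII. All other called members (Itgb2, Itgb3, Itga8, Itgb5 and Itgb7) were dim.

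**Figure D1:**
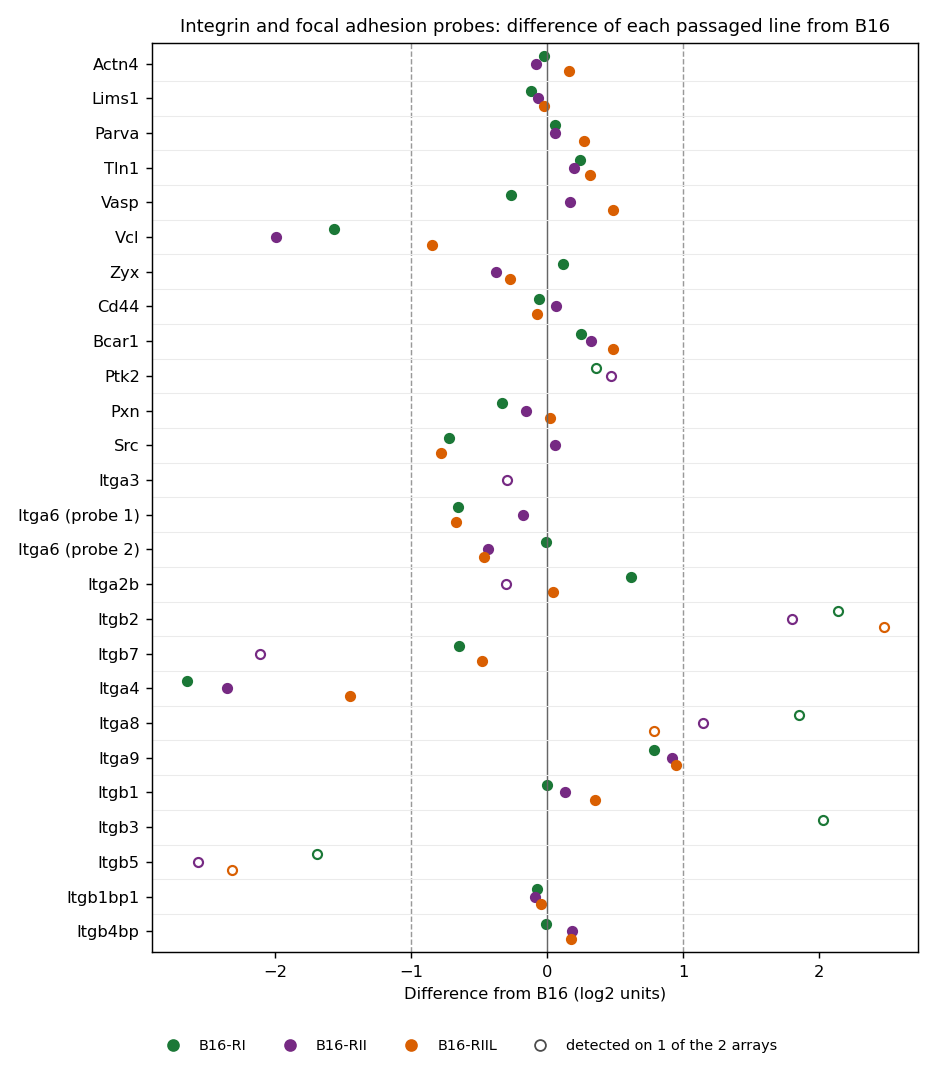
The horizontal axis gives the difference of each passaged line from B16 in log2 units for the 26 member probes detected on at least 1 array, grouped by role, with 1 point per line and dashed lines at a 2-fold difference. Filled points were detected on both arrays, open points on 1 of them and are bounds, and pairs detected on neither array are left out. Most probes lie near 0, while Itga4 and Vcl lie to the left with filled points and Itgb2 lies to the right with open points.

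The promoters of 3 genes are printed here because the results turn on them: Itga4 and Vcl, the members that were well detected and lowest relative to B16, and Itga9, whose signal was higher in each passaged line. Each run holds the 250 bases before the RefSeq start of the gene in assembly GRCm38.p6, in the direction of transcription, and motif matches are in capitals.

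Itga4, chr2:79255176-79255425, plus strand: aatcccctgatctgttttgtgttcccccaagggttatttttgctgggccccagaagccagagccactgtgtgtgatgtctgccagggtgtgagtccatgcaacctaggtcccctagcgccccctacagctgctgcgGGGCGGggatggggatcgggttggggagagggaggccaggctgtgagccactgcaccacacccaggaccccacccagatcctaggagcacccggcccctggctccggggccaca

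Vcl, chr14:20929148-20929397, plus strand: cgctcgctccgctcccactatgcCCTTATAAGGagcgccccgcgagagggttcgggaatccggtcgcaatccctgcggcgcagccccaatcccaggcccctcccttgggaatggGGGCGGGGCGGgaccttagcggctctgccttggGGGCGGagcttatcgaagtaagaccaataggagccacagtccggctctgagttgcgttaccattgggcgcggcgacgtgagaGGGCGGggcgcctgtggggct

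Itga9, chr9:118711442-118711691, plus strand: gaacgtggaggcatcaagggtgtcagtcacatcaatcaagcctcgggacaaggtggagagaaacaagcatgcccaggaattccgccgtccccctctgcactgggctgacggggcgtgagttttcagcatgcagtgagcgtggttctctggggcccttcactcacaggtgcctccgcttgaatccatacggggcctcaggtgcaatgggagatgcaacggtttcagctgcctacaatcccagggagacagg

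Both strands of each window were searched for CACGTG and CATGTG, letters bound by MITF and related factors, for GGGCGG, bound by SP factors, for TGANTCA, bound by AP-1, for TATAAA, and for the CArG box, bound by serum response factor. The Itga4 window held 1 GGGCGG and no other match. The Vcl window held a CArG box of 10 bases that reads the same on both strands, and 4 GGGCGG matches, of which 2 overlap by a base. The Itga9 window held none of these motifs. A CArG box was present in 1.47% of the 32851 promoters of the table and GGGCGG in 32.7%. Among the 29 member genes with a promoter in the table, the CArG box was found in Vcl and in 1 of the promoters of Itgb6. CACGTG was found in 6.02% of all promoters, CATGTG in 12.3%, TGANTCA in 6.75% and TATAAA in 12.4%. These matches describe letters and say nothing of binding in these cells.

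Itga4, an alpha chain that pairs with Itgb1 or Itgb7 to bind fibronectin, osteopontin and VCAM, had the largest measured decrease of the members detected on every array. Its log2 signal was 3.33 in B16, 0.68 in B16-RI, 0.97 in B16-RII and 1.87 in B16-RIIL, with S/N values of 15.1, 5.37, 4.98 and 13.1. All 3 passaged lines thus lay below B16, by 6.27-fold in B16-RI, 5.13-fold in B16-RII and 2.74-fold in B16-RIIL. These 3 folds share the single B16 array and are not independent. B16-RIIL was 2.29-fold above B16-RI. Another probe for Itga4 was not detected on any array, with S/N values between 0.17 and 1.09, and could not be used as a check. On the values as deposited, without removal of the offsets, the difference in B16-RIIL was -0.99 log2 units and fell just short of 2-fold.

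Itga9, an alpha chain that pairs with Itgb1 and is known as a receptor for osteopontin and tenascin, ran the opposite way. Its log2 signal was 1.62 in B16, 2.40 in B16-RI, 2.53 in B16-RII and 2.56 in B16-RIIL, with S/N values of 5.30, 6.87, 13.3 and 12.5. Every passaged line was higher than B16, by 1.72-fold, 1.88-fold and 1.92-fold, and none reached the 2-fold limit. With quantile normalization within the probe sets the differences in B16-RII and B16-RIIL were 1.02 and 1.00 log2 units, and on the deposited values that in B16-RII was 1.33.

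Itga8, another partner of Itgb1 in receptors for osteopontin and nephronectin, was not detected in B16 and was detected in the passaged lines. The log2 signals were -0.30, 1.55, 0.84 and 0.48 in the order B16, B16-RI, B16-RII and B16-RIIL. B16-RI was at least 3.61-fold and B16-RII at least 2.21-fold above B16, and the bound for B16-RIIL was 1.73-fold. The S/N was 2.26 in B16, close to the detection limit, and 6.07, 5.24 and 3.11 in the passaged lines.

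Itgb3, the beta chain of the vitronectin receptor, was detected in B16-RI alone. Its log2 signals were -0.62, 1.41, -1.01 and -0.94, and the S/N was 5.62 in B16-RI and below 1 elsewhere. B16-RI was at least 4.08-fold above B16, at least 5.34-fold above B16-RII and at least 5.08-fold above B16-RIIL. Itgav, the alpha chain of that receptor, was not detected on any array, nor were Itga5 and Itgb6.

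Itgb5, which also pairs with Itgav, was detected in B16 alone. The log2 signals were 1.21, -0.48, -1.36 and -1.11. B16 was at least 3.23-fold above B16-RI, at least 5.94-fold above B16-RII and at least 4.99-fold above B16-RIIL, all of them resting on an S/N of 3.04 in B16, barely over the limit. At an S/N limit of 5, chosen after the data had been seen, Itgb5 was no longer called in any line.

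Itgb1, the beta chain shared by most matrix receptors, was detected on every array and called in no line. Its log2 signal was 7.53 in B16, 7.52 in B16-RI, 7.66 in B16-RII and 7.88 in B16-RIIL, with S/N values between 67.1 and 98.0. The difference from B16 was 0.35 log2 units in B16-RIIL and smaller in the other lines. Under the other scalings it ranged from 0.11 to 0.40 in B16-RIIL. The sign of the difference in B16-RI and B16-RII changed with the scaling of the arrays. Itgb1 lies on chromosome 8, whose 430 probes detected on every array and placed on a chromosome had a median difference from B16 of 0.40 in B16-RIIL, against 0.015 for the 7258 probes on other chromosomes. The corresponding medians for chromosome 8 were 0.036 in B16-RI and 0.10 in B16-RII. Bcar1, the other member on chromosome 8, differed from B16 by 0.48 in B16-RIIL. Other chromosomes were not examined singly, and the part of chromosome 8 in these values was not tested.

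**Figure D2:**
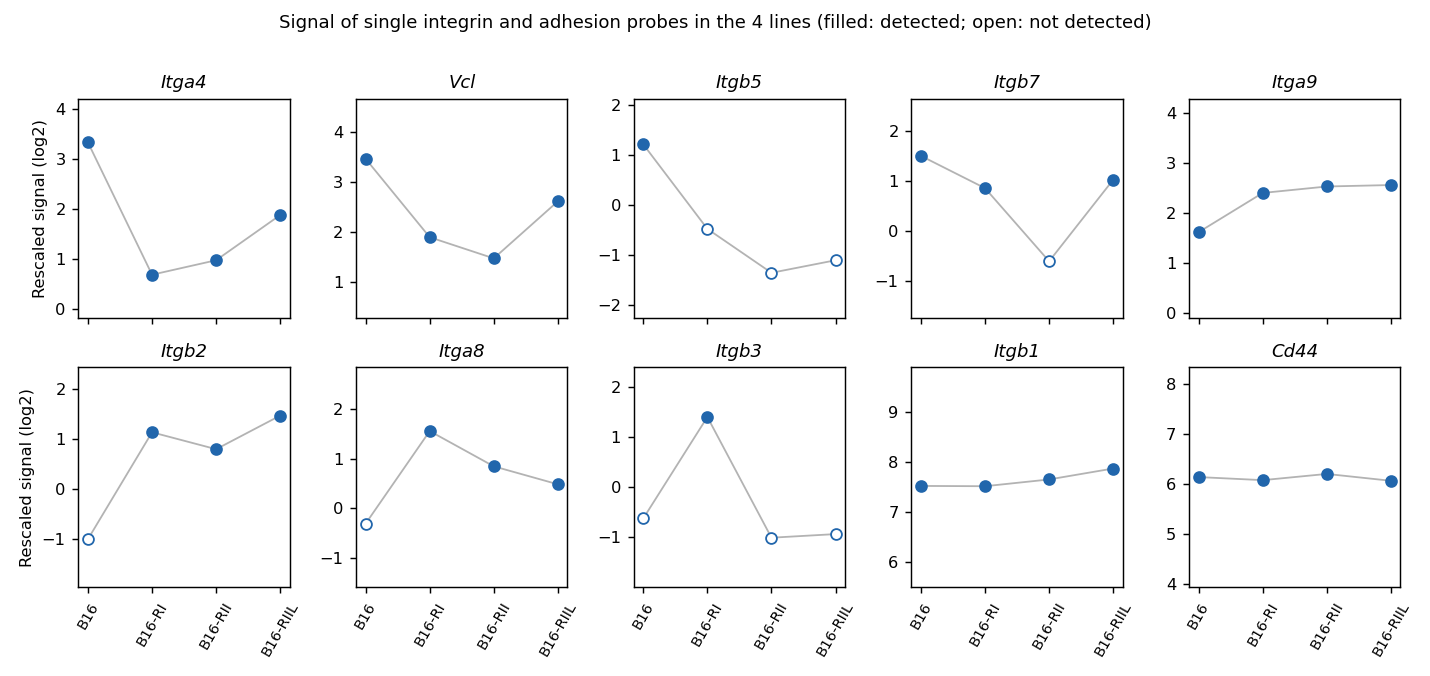
Each panel gives the log2 signal of 1 probe on the 4 arrays, after the offsets from B16 had been removed, with filled points for detected and open points for not detected. Every panel spans the same number of log2 units, and levels are not comparable between panels. Itga4 and Vcl are highest in B16, Itgb2 and Itga8 are not detected in B16, Itgb3 stands out in B16-RI, and Itgb1 and Cd44 are nearly level.

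Itgb2, the beta chain of the leukocyte integrins, was above B16 in every passaged line. The log2 signals were -1.0, 1.14, 0.80 and 1.47, and the S/N was 1.37 in B16 and 5.54, 4.94 and 7.52 in the passaged lines. The differences were at least 4.40-fold in B16-RI, 3.48-fold in B16-RII and 5.55-fold in B16-RIIL, and the call in B16-RII was lost at an S/N limit of 5. Its partners Itgal, Itgam and Itgax were not detected on any array. Of 13 other leukocyte marker probes, 3 were detected in B16, 2 in B16-RI, 2 in B16-RII and 4 in B16-RIIL. Without Cd79a, 1 probe of which was bright on all arrays, their summed signal was 8.01, 6.19, 5.51 and 8.22. Apart from Cd79a, none of these probes was detected in B16-RI and only 1, of Csf1r, in B16-RII. The sums are thus mostly undetected signal, and their differences between lines were not read as leukocyte levels. The part of other cells in the Itgb2 signal was not tested.

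Itgb7, the beta chain that joins Itga4 or Itgae on lymphocytes, was lowest in B16-RII. Its log2 signals were 1.5, 0.85, -0.61 and 1.02, detected on all arrays except B16-RII. B16-RII lay at least 4.32-fold below B16, at least 2.76-fold below B16-RI and at least 3.10-fold below B16-RIIL. Itgae was not detected on any array. Itga2b, the alpha chain of the platelet fibrinogen receptor, gave 1.48, 2.10, 1.18 and 1.52 and passed the 2-fold limit only on the deposited values of B16-RI. Of 4 other platelet probes, 1 was detected in B16, B16-RI and B16-RIIL and 2 in B16-RII.

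Receptors for laminin and collagen showed no call. Itga6, a laminin receptor chain, had 2 probes that were detected on every array. The first gave 2.76, 2.10, 2.58 and 2.08 and the second 4.66, 4.65, 4.23 and 4.20. Both were lower than B16 in B16-RIIL, by 0.67 and 0.46 log2 units, under every scaling, whereas the sign of the first probe in B16-RII and of the second in B16-RI changed with the scaling. Itga3 was detected in B16-RII alone at an S/N of 3.03, and Itga2, Itga7 and Itga11 on no array.

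Vcl, vinculin, which couples talin to actin filaments under tension, was the cytoplasmic member with the largest difference. Its log2 signal was 3.46 in B16, 1.89 in B16-RI, 1.47 in B16-RII and 2.61 in B16-RIIL, with S/N values of 13.7, 6.67, 7.15 and 14.7. B16 was above all passaged lines, by 2.97-fold over B16-RI, 3.98-fold over B16-RII and 1.80-fold over B16-RIIL. B16-RIIL in turn was 2.21-fold above B16-RII. With quantile normalization of the raw signals or scaling to the 75th percentile, Vcl in B16-RIIL passed the 2-fold limit as well, at -1.12 and -1.09 log2 units.

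None of the other linkers of integrins to actin was called against B16. Tln1, talin, had log2 signals of 5.69, 5.93, 5.88 and 6.0. Actn4, an actin crosslinker, had 9.39, 9.37, 9.30 and 9.54. The differences from B16 were at most 0.32 log2 units for Tln1 and 0.16 for Actn4, and on the deposited values up to 0.78 for Tln1. Lims1 and Parva, which join integrin-linked kinase to actin, differed from B16 by at most 0.12 and 0.27 log2 units. Under the other scalings Lims1 ranged from -0.40 to 0.35 and Parva from -0.12 to 0.48 over the passaged lines. Zyx, zyxin, ranged from 4.71 to 5.2 and Vasp, which promotes actin filament growth, from 7.82 to 8.57. Vasp was highest in B16-RIIL, 0.48 log2 units above B16 and 0.75 above B16-RI, and the difference from B16 was 0.94 on the deposited values. Ilk itself and both probes of Tns1, tensin, were not detected on any array. An undetected probe does not show that the transcript was absent.

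Kinases and their scaffolds had no call against B16 either. Ptk2, focal adhesion kinase, lay near the detection limit on all arrays, with S/N values of 2.62, 3.64, 3.08 and 1.74. Its log2 signals were 1.46, 1.81, 1.93 and 0.91, and B16-RIIL lay at least 2.03-fold below B16-RII. Src gave 5.58 in B16, 4.86 in B16-RI, 5.63 in B16-RII and 4.80 in B16-RIIL. B16-RI and B16-RIIL were thus lower than B16 and B16-RII, by 0.72 and 0.78 log2 units relative to B16, and Src in B16-RIIL passed the 2-fold limit under quantile normalization of the raw signals and under 75th percentile scaling, but not under quantile normalization within the probe sets. Pxn, paxillin, gave 5.37, 5.04, 5.22 and 5.39, and Bcar1, a scaffold phosphorylated by Src, gave 4.57, 4.82, 4.89 and 5.05.

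Cd44, the hyaluronan receptor that also binds osteopontin, was nearly level at 6.15 in B16, 6.08 in B16-RI, 6.21 in B16-RII and 6.07 in B16-RIIL. Its differences from B16 changed sign with the scaling of the arrays. Its S/N ran from 81.0 to 102 over the arrays. Splice forms of Cd44 were not analysed here.

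Over the 18 member probes detected on every array, the range from the lowest to the highest of the 4 arrays had a median of 0.41 log2 units. For all 11604 probes detected on every array it was 0.49. The range was under 0.5 log2 units in 12 of the 18 members (66.7%), against 51.3% of all such probes, and at least 1 in 2 of 18 (11.1%), namely Itga4 and Vcl, against 11.5%. For B16-RIIL against B16 the order was the other way, with a median size of the difference of 0.33 log2 units over these members and 0.27 over all such probes. The median difference of the members from B16 was -0.011 in B16-RI, -0.072 in B16-RII and 0.019 in B16-RIIL, against -0.020, -0.026 and -0.0053 for all probes compared. These medians follow the removal of the array offsets and cover members that differed in both directions, from -2.65 to 2.14 log2 units in B16-RI. On the deposited values the member median was 0.35 in B16-RII, and without the detection filter it was -0.31 in B16-RIIL.

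The passaged lines were also compared with each other. B16-RII had 0 members above B16-RI, against 7.33% of all probes, and 2 of 25 below (Itgb3 and Itgb7), against 7.92%. B16-RIIL had 1 of 24 above B16-RI (Itga4), against 10.9%, and 2 of 24 below (Itgb3 and Itga8), against 8.02%. Between the lines of the second passage, 2 of 24 members were higher in the lung line B16-RIIL than in the lymph node line B16-RII (Vcl and Itgb7), against 9.08% of all probes, and 1 was lower (Ptk2), against 6.41%. Itga4 and Vcl were both nearer to B16 in B16-RIIL than in the lymph node lines.

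**Figure D3:**
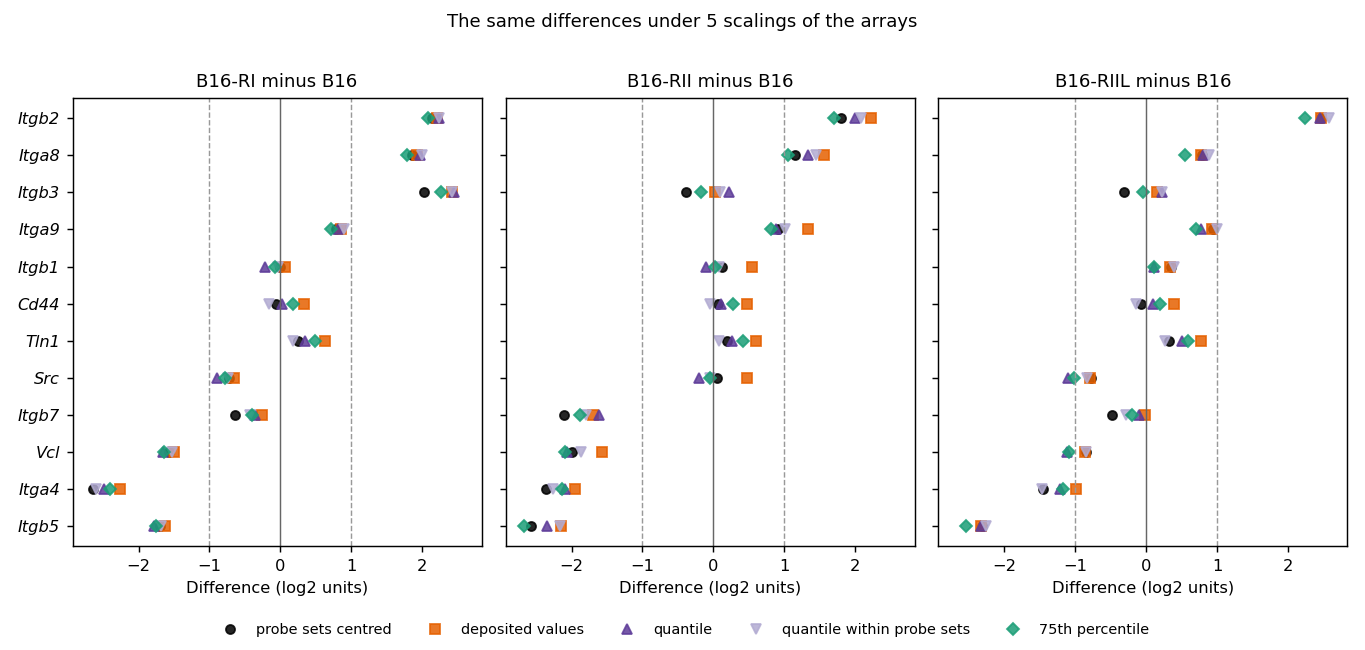
The horizontal axes give the difference of each passaged line from B16 in log2 units for 12 members, under 5 scalings of the arrays shown by marker shape and colour, with dashed lines at a 2-fold difference. Itgb3 in B16-RII and B16-RIIL was detected on neither array and is drawn for completeness. Differences of Itga4, Vcl, Itgb5 and Itgb2 keep their side of 0 under every scaling, whereas those of Itgb1, Cd44 and Src in at least 1 line cross 0.

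Genes around the integrins were read from 8 lists of ligands, membrane partners, activators, adaptors, actin linkers, kinases, GTPase regulators and hyaluronan genes, with 172 probes in all. In B16-RI, 10 of 119 probes compared were above B16 (8.40%) and 8 below (6.72%). In B16-RII these counts were 7 and 7 of 119 (5.88% each), and in B16-RIIL 11 (9.17%) and 4 (3.33%) of 120. These shares stand beside the same background shares of all probes as given for the members. Of 31 probes for matrix and surface ligands, 16 were detected on no array, among them Vtn, Tnc, Vcam1 and Icam1.

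Spp1, osteopontin, a ligand of Itga4, Itga8 and Itga9 in complex with Itgb1 and of the Itgav receptors, was not detected in B16 by either of its probes. The first gave log2 signals of 0.90, 4.26, 5.96 and 6.30, with bounds against B16 of 3.36, 5.06 and 5.39 log2 units. The second gave -1.06, 1.77, 2.93 and 3.12, with smaller bounds of 2.83, 3.99 and 4.18. Both detected Spp1 in all 3 passaged lines. Among its receptor chains, Itga4 and the dim Itgb5 were called below B16 in all 3 passaged lines. Itga8 was called above B16 in B16-RI and B16-RII, Itgb3 in B16-RI, and Itga9 in no line, while Cd44 was nearly level. Fn1, fibronectin, gave 4.10, 4.98, 4.08 and 4.30 and was not called.

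Among intracellular partners, Dab2, an endocytic adaptor that binds integrin beta tails, was not detected in B16 and lay at least 3.07, 3.22 and 3.04 log2 units higher in B16-RI, B16-RII and B16-RIIL. Lims2, a relative of Lims1, gave log2 signals of 0.53, 3.49, 1.08 and 2.60 and was not detected in B16. It lay at least 2.96 log2 units above B16 in B16-RI and 2.07 in B16-RIIL, whereas the bound in B16-RII was 0.55 and was not called. Yes1, a kinase of the Src family, was detected on every array at 3.46, 1.13, 1.76 and 1.90, and all passaged lines were below B16, by 2.33, 1.70 and 1.56 log2 units. Parvg, a relative of Parva that is best known from blood cells, and Tiam1, an activator of Rac, were detected in B16 alone. B16-RI, B16-RII and B16-RIIL lay below B16 by at least 3.36, 2.27 and 2.08 log2 units for Parvg and by at least 2.44, 1.94 and 2.44 for Tiam1.

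Of the remaining listed genes that were called alike in at least 2 passaged lines, Cd82, a tetraspanin that associates with integrins, gave 1.42, -0.04, -1.06 and 1.38. Cdh1, E-cadherin, the ligand of Itgae, gave 0.29, -1.71, -1.56 and 0.23. Both were detected in B16 and in B16-RIIL and in neither lymph node line. Cdh1 is also 1 of the 5 lung epithelium probes counted above, and Epcam, another of them, had the same pattern at 0.61, -1.33, -1.88 and 0.61. The other lung epithelium probes did not share it. Sftpb was detected in B16 alone, Scgb1a1 in B16-RIIL alone and Sftpc on no array. The part of other cells in these signals was not tested. Adam15, a surface protease that binds integrins, was detected in B16 alone and was at least 1.34 log2 units lower in B16-RI and 2.34 in B16-RII. Pik3r1, a regulatory subunit of PI3-kinase, was at least 1.10 and 1.73 log2 units above B16 in B16-RII and B16-RIIL. Cemip2, a surface protein of hyaluronan turnover, was at least 1.04, 1.44 and 1.69 log2 units above B16 by 1 probe, whereas its other probe gave differences of 0.36, 0.18 and -0.11. Svil, supervillin, which binds actin and myosin, was at least 1.59 and 1.58 log2 units above B16 in B16-RII and B16-RIIL by 1 probe, while its other probe was detected in B16-RIIL alone. Sorbs3, vinexin, a partner of vinculin, also met the criterion but ranked below the limit of 12 genes. It was detected on every array at 1.88, 2.41, 2.95 and 2.90, and was 1.06 and 1.01 log2 units above B16 in B16-RII and B16-RIIL.

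**Figure D4:**
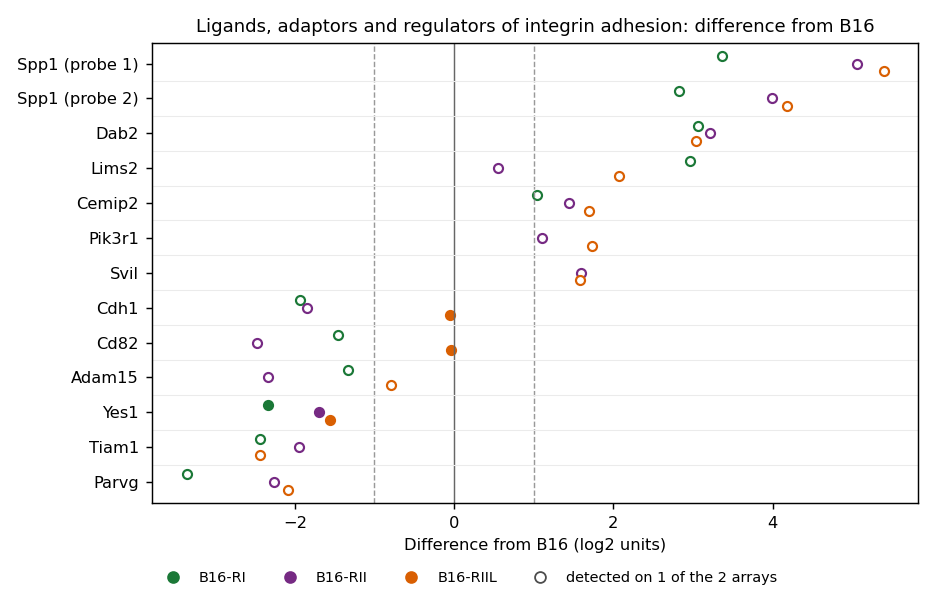
The horizontal axis gives the difference of each passaged line from B16 in log2 units for the 13 probes of 12 listed genes named by rule, with 1 point per line. Filled points were detected on both arrays, open points on 1 of them and are bounds, and pairs detected on neither are left out. Yes1 is the only gene with filled points for all 3 lines, and Cdh1 and Cd82 have their B16-RIIL points near 0.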

How the data were processed

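Labelled cRNA of 4 lines was measured on mouse genome arrays of Applied Biosystems by chemiluminescence, with 1 signal per probe. The authors deposited the raw signal intensity and a normalized intensity, together with the S/N and the flag, which are scores of the analyzer. The software versions were not given in the sources used here. The methods name quantile normalization, but the deposited normalized intensity equals the raw intensity divided by 1 of 2 constants per array, for 16524 and 16488 probes. These 16 columns were used. Another 20 columns of per-sample values from second arrays match no sample and were not used, and neither were columns of the authors' own ratios.

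From the deposited intensity, log2 values were taken without a pseudocount. In each probe set and array, the median difference from B16 over the 11604 probes detected on every array was subtracted, which leaves B16 at its deposited values. This removes an offset between the probe sets. A probe entered a comparison when at least 1 of its 2 arrays detected it, and 6 pairs of arrays were compared. Detection used the limits of the methods on 1 array. The numbers of probes detected were 14375 in B16, 13872 in B16-RI, 14756 in B16-RII and 14855 in B16-RIIL. The number of arrays used, 1 per line, limits the precision of every value, and no p-value was computed.

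The members and lists were chosen with earlier results of these data known. Named were all members called in at least 1 passaged line, a fixed set of well known members, and at most 12 listed genes called alike in at least 2 passaged lines, by mean size. The other members were described after their values had been seen. Alternatives were 4 other scalings, other detection rules, a 1.5-fold limit and 1 probe per gene. Gene names, chromosomes and promoters came from RefSeq tables of GRCm38.p6. The call rule was tried on simulated data for 33012 probes. With noise of 0.15 log2 units, 100 of 100 probes raised by 1.6 log2 units in B16-RI and 98 of 100 lowered ones were called. The simulation changed only probes detected on every array, by far more than the noise it added, and leaves out the noise of dim probes. It therefore checks the working of the call rule and not the calls that rest on an undetected array. Python 3.11.15, numpy 2.4.6, pandas 2.3.3 and matplotlib 3.10.9 were used.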

Additional observations from a re-analysis of the deposited data

How the results depend on the processing

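With 1 labelled sample per line, no replicate could be left out. No paired analysis was run, because the labels give each line 1 sample and the columns of second arrays, which match no labelled sample, were not used. Over the members detected on at least 1 array, the fixed members and the 12 named list genes, 48 differences were called and 81 were not, and each was recomputed under 4 other scalings. In 190 of the 192 recomputed values of called differences the 2-fold limit was still passed, in 2 it was not, and 0 changed sign. The 12 list genes had been chosen for their calls and their large size. Their part of this tally is therefore no independent check and says little about the members. Of the 324 recomputed values of the others, 8 passed the limit (of Vcl, Itga9, Src and Itga2b) and 62 changed sign. With detection required on both arrays, the counts of members above B16 were 0 in B16-RI, 0 in B16-RII and 0 in B16-RIIL, and those below were 2 in B16-RII and 1 in B16-RIIL, since the bounds are then left out. Without a detection filter, 6 members were below B16 in B16-RI, 8 in B16-RII and 4 in B16-RIIL, and the median difference in B16-RIIL was -0.31. With a 1.5-fold limit, 5 were above and 6 below in B16-RI, and 3 above and 5 below in B16-RIIL. With an S/N of at least 5, chosen after seeing the data, 1 member was above in B16-RII and 1 below in B16-RIIL. In B16-RIIL, 2 members were above with quantile normalization within probe sets, 4 were below with quantile normalization of raw signals and 4 with 75th percentile scaling, and 1 was below on the deposited values. The cause was not tested. Of all probes in B16-RIIL, 1693 were above within probe sets, against 1401 as reported. Below B16 lay 1600 with quantile normalization of raw signals, 1804 with 75th percentile scaling and 1398 on the deposited values, against 1666 as reported. Shares of all probes under these other rules are not given here, and not every line is listed. The member counts can therefore not be read against the array. On the deposited values the median difference of the members was 0.35 in B16-RII and 0.26 in B16-RIIL, where the offset of the arrays stays in. The share of called probes of the whole array that were above B16 was 39.7%, 37.3% and 45.7% in B16-RI, B16-RII and B16-RIIL, and 52.3%, 63.4% and 60.2% on the deposited values. Quantile normalization gave 45.7%, 51.6% and 52.9%, within probe sets 46.0%, 52.4% and 53.3%. Members near background, with an S/N under 10, are the least certain.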
